A study of Mus musculus with 12 samples.

Results

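The genes described here are 9 gliosis genes that retinal injury is known to switch on: Gfap, Vim, Nes, Lcn2, Serpina3n, Edn2, Cp, A2m and Cebpd. They were taken as a list of symbols, with no threshold on their values, though earlier results of these data were known. They are 9 of the 25655 genes in the deposited tables. Whole retinas of C57BL/6J mice, labelled 8 to 10 weeks old, were collected 2 days after optic nerve crush (ONC), an injury to the axons of the retinal ganglion cells, here in the left eye. After the crush each eye received 1 intravitreal injection of PBS, of fluvastatin, a statin and so an inhibitor of HMG-CoA reductase, or of MBV, matrix-bound nanovesicles that the study prepared from the extracellular matrix of porcine urinary bladder. Crush and injection were therefore common to every group, the PBS controls included, and no uninjured retina was analysed here, so the size of the injury response itself was not measured. Each group had 3 libraries. A further group given MBV and fluvastatin together was not analysed here, because its count columns carry no library name. Whether each library came from a separate mouse is not given in the sources used here, so the p-values measure only the spread between libraries.

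Müller glia span the retina and, with the astrocytes of the nerve fibre layer, respond to injury by gliosis. In gliosis these cells build up intermediate filaments (Gfap, Vim, Nes) and secrete acute phase proteins and protease inhibitors (Lcn2, Serpina3n, Cp, A2m). Endothelin (Edn2) is instead a signal that stressed photoreceptors release and that acts on Müller glia. In gliosis the glia also switch on transcription factors of injury signalling (Cebpd). Cytokines of the IL-6 family, among them Lif, act through the receptor subunit gp130 and the transcription factor STAT3 and are a known trigger of this programme in the retina. In whole retina, fewer cells of a type and less RNA per cell cannot be told apart.

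The question put to the data was how fluvastatin or MBV changed these genes against PBS, and how the agents differed from each other. Nes was the member that differed from PBS, by about 4-fold and in both comparisons. These comparisons share the same PBS libraries and so are not independent of each other. The other 8 members did not pass the main test in any comparison with all libraries included, though some did in alternative fits. Their chief feature was a large spread between libraries of the same group. Lcn2 and Cp had separate ranges in the MBV and the fluvastatin retinas, with the higher values after MBV, and the test of this difference depended on the tool. Levels are given as CPM, a gene's counts scaled to a fixed total of counts on genes in its library, and these totals came to 21349516 to 30992040. Differences are log2 fold changes with their standard error (SE). The false discovery rate (FDR) is the Benjamini-Hochberg adjusted p of the quasi-likelihood test in edgeR, over all genes tested, and a gene was called at an FDR under 0.05.

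PBS libraries carry labels from the first of the series' sets of library numbers, and the fluvastatin and MBV libraries from the second. For each agent against PBS, library set and treatment therefore cannot be told apart, whereas MBV and fluvastatin lie in the same set. Markers of retinal cell types were present in all libraries, with higher sums in PBS. The 8 photoreceptor genes summed to 41400 to 44500 CPM in PBS, 36400 to 38800 in fluvastatin and 29000 to 39600 in MBV. The 14 Müller glia genes summed to 5110 to 5590 CPM in PBS, 2960 to 4550 in fluvastatin and 2820 to 4520 in MBV. The 8 lens genes, some of which injured retina can also express, summed to 60.0 to 164 CPM in the MBV libraries against 1.98 to 6.42 CPM in PBS and 2.88 to 21.2 CPM in fluvastatin. Their part in the results was not tested.

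**Figure D1:**
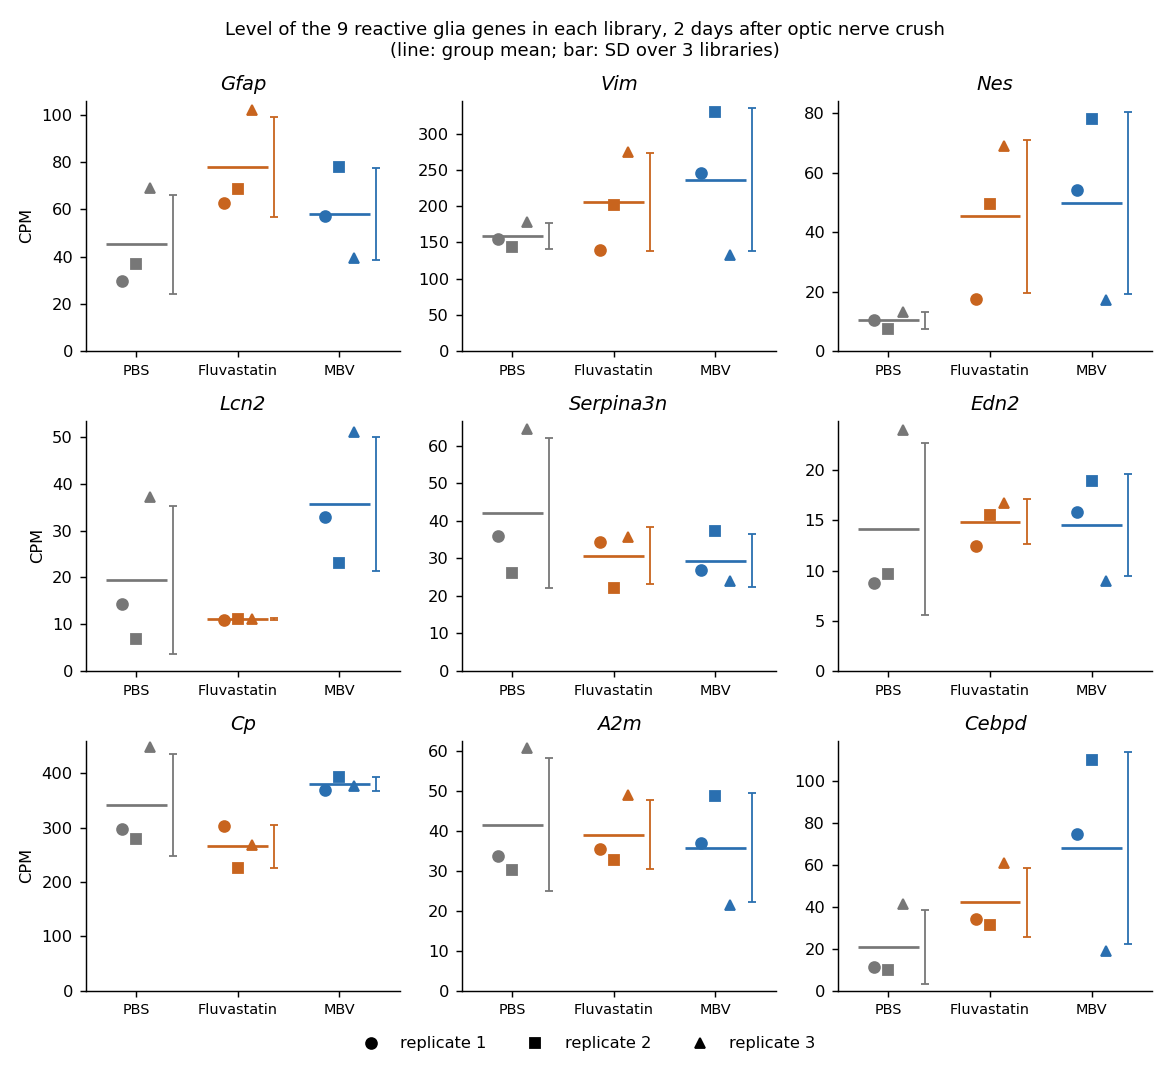
CPM of each of the 9 genes on a linear axis from 0, for PBS (grey), fluvastatin (orange) and MBV (blue); symbols are libraries by replicate number, horizontal lines group means and vertical bars the SD over 3 libraries. Nes has all 6 treated libraries above the 3 PBS libraries, and PBS replicate 3 is the highest PBS library in every panel.

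The promoters of 3 members are shown because they stand for the 3 patterns that follow: a filament gene that did not pass the test, a secreted protein that separated MBV from fluvastatin, and the gene that rose. Each is the 250 bases before the transcription start in RefSeq, on GRCm38.p6, read 5′ to 3′ on the gene's own strand. They lie at chr11:102897201-102897450 on the minus strand (Gfap), chr2:32387740-32387989 on the minus strand (Lcn2) and chr3:87970843-87971092 on the plus strand (Nes). Capitals mark a match to the C/EBP motif TTGNNCAA.
Gfap promoter: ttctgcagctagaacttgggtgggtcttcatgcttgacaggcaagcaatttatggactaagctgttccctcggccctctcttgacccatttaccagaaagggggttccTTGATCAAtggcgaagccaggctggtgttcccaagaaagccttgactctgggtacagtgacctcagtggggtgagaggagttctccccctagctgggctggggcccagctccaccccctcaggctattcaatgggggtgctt
Lcn2 promoter: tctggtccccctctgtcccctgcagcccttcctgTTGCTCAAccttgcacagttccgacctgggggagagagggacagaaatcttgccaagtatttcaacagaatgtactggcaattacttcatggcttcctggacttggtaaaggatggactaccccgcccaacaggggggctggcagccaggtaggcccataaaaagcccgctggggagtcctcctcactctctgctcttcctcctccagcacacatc
Nes promoter: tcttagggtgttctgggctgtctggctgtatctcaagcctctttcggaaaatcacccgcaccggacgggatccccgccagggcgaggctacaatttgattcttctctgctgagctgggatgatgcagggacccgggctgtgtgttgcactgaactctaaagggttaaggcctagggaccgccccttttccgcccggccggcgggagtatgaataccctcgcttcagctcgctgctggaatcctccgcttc
The match TTGATCAA in Gfap lay at positions -142 to -135 from the start, and TTGCTCAA in Lcn2 at -216 to -209. On either strand, TTGNNCAA was found in 5.65% of 32851 promoter windows of this length. The STAT motif TTCNNNGAA, found in 7.02% of all windows, had no match in the windows of the 7 members for which RefSeq entries were given. The AP-1 motif TGANTCA, present in 6.75% of windows, matched once in Cp, and the NF-kB motif, present in 5% of windows, matched at 2 places in Vim. These matches describe letters in a window and do not show binding.

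Nestin (Nes, ENSMUSG00000004891, GRCm39 chr3:87878385-87887758, plus strand) is an intermediate filament protein of neural progenitors that reactive Müller glia take up again. Its level was 10.6, 7.47 and 13.0 CPM in the PBS libraries. It was 17.6, 49.4 and 68.8 CPM in the fluvastatin libraries and 54.1, 78.1 and 17.1 CPM in the MBV libraries. All treated libraries were above all PBS libraries, but fluvastatin replicate 1 and MBV replicate 3 were much closer to PBS than the others of their groups. Against PBS, Nes rose by 2.13 ± 0.395 (log2 fold change ± SE) after fluvastatin, a 4.39-fold difference with an edgeR FDR of 0.00513. After MBV it rose by 2.22 ± 0.449, or 4.67-fold, with an edgeR FDR of 0.00713. Both calls held in each of 12 alternative fits per comparison, those leaving out 1 library included, with edgeR or DESeq2 FDRs of 8.38e-07 to 0.0286 for fluvastatin and 2.33e-06 to 0.0339 for MBV. Between MBV and fluvastatin the Nes difference was 0.10 ± 0.515, with an edgeR FDR of 0.963. Per kilobase of exon, Nes had the lowest level of the 9 members in PBS, at 1.62 CPM per kb against 33.3 for Vim.

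Nes was the only 1 of the 9 members called in fluvastatin against PBS, where 19.6% of all 18818 genes tested were called and 9.36% were called higher. It was again the only 1 of 9 called in MBV against PBS, where 26.1% of 18897 genes were called and 12% were called higher. Ranges that did not overlap were likewise found for Nes alone in these comparisons, beside 36.5% of all genes for fluvastatin and 40.7% for MBV. Genes with separate and higher ranges made up 16.7% and 21.9% of all genes tested. An unadjusted p under 0.05 was reached by 4 members with fluvastatin (Gfap, Nes, Cp and Cebpd) and by 2 with MBV (Nes and Cebpd), beside 32.5% and 37.8% of all genes. The median log2 difference of the members was 0.0942 for fluvastatin and 0.33 for MBV, against -0.00716 and 0.00951 over all genes tested. All 9 members had enough counts to be tested, the lowest being 202 counts for Lcn2 in PBS replicate 2.

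**Figure D2:**
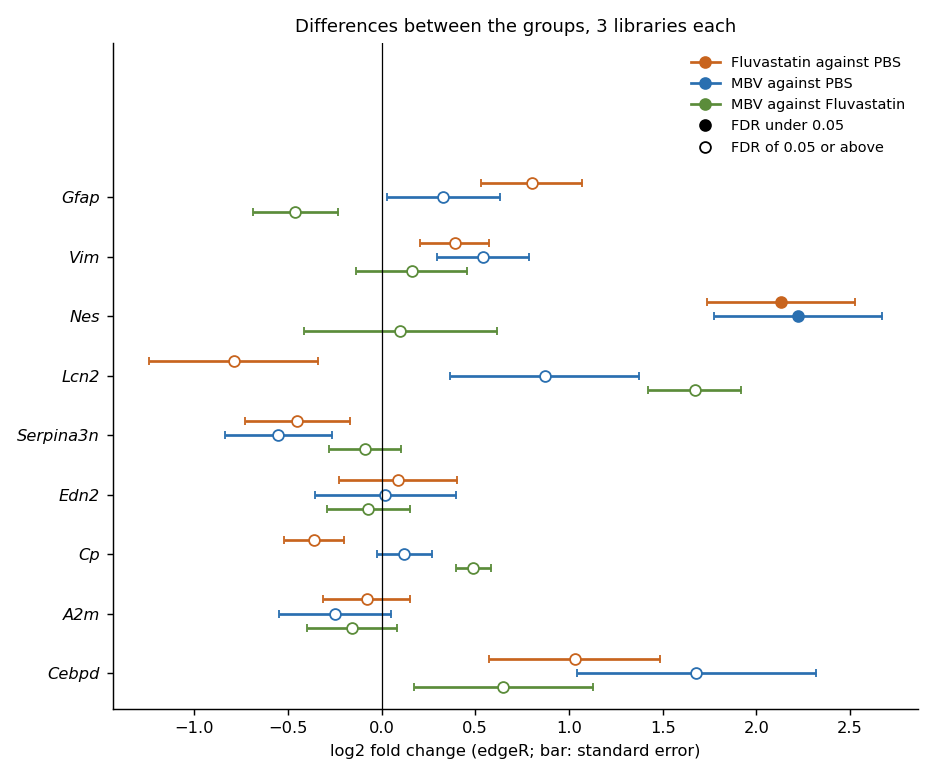
Log2 fold change (x axis) with its standard error for each gene in fluvastatin against PBS (orange), MBV against PBS (blue) and MBV against fluvastatin (green), 3 libraries per group. Filled points, Nes at 2.13 and 2.22, have an FDR under 0.05, and Lcn2 at 1.67 and Cp at 0.49 are the MBV against fluvastatin values farthest from 0 relative to their errors.

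Gfap (ENSMUSG00000020932, chr11:102778162-102791738, minus strand) encodes the filament protein by which gliosis is usually stained. It stood at 29.8, 36.8 and 68.8 CPM in PBS, at 62.7, 68.7 and 102 CPM in fluvastatin, and at 57.1, 77.8 and 39.2 CPM in MBV. The fluvastatin range began within the PBS range only because of PBS replicate 3, and the MBV range overlapped both. The difference from PBS was 0.80 ± 0.268 for fluvastatin, with an edgeR FDR of 0.0622, and 0.33 ± 0.302 for MBV, with an FDR of 0.473. Without PBS replicate 3, Gfap was called in fluvastatin against PBS at 1.23, with an edgeR FDR of 0.00393, and without fluvastatin replicate 1 at 0.93, with an FDR of 0.0166. Fluvastatin retinas had the higher mean, 77.9 ± 21.3 CPM (SD, n = 3) against 58.1 ± 19.4 CPM for MBV, and this difference did not pass the test, at -0.46 ± 0.227 for MBV against fluvastatin and an edgeR FDR of 0.507.

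Vimentin (Vim, ENSMUSG00000026728, chr2:13578738-13587637, plus strand), the main filament of resting and reactive Müller glia, was at 154, 143 and 178 CPM in PBS. It was at 140, 202 and 275 CPM in fluvastatin and at 246, 330 and 133 CPM in MBV. In each treated group 1 library, fluvastatin replicate 1 and MBV replicate 3, lay below every PBS library. These are the same libraries in which Nes was low. The difference from PBS was 0.39 ± 0.183 for fluvastatin and 0.54 ± 0.247 for MBV, with edgeR FDRs of 0.175 and 0.145. Without those libraries Vim was called, at 0.60 with an edgeR FDR of 0.00129 for fluvastatin and at 0.81 with an FDR of 0.000158 for MBV. Vim shares 586 exon bases with the long non-coding gene Gm54102 on the other strand, and because the sources do not say whether counting used strand, reads of the pair cannot be told apart.

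Cebpd (ENSMUSG00000071637, chr16:15705150-15708895, plus strand) encodes C/EBP delta, a transcription factor of the acute phase response. Its levels were 11.3, 9.88 and 41.3 CPM in PBS, 34.2, 31.3 and 60.8 CPM in fluvastatin, and 74.6, 110 and 19.2 CPM in MBV. PBS replicate 3 lay within the treated ranges and MBV replicate 3 near the other PBS libraries, so the groups overlapped in spite of means of 20.8 ± 17.8, 42.1 ± 16.3 and 68.0 ± 45.8 CPM (SD, n = 3 each). The difference was 1.03 ± 0.458 for fluvastatin and 1.68 ± 0.637 for MBV, with edgeR FDRs of 0.146 and 0.0839. Leaving out PBS replicate 3 brought both past the threshold, to 1.99 with an edgeR FDR of 0.00238 for fluvastatin and to 2.63 with an FDR of 0.0206 for MBV. Leaving out MBV replicate 3 gave 2.12 with an edgeR FDR of 0.0023 for MBV. The paper, which used CLC Genomics Workbench, lists Cebpd among its top genes for MBV against PBS, so whether it is called depends on the analysis. Cebpd shares 563 exon bases with Spidr, a DNA repair gene on the other strand, whose mean was 10.2 CPM in PBS, 18.2 in fluvastatin and 19.1 in MBV, and without strand their reads cannot be told apart.

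Lipocalin 2 (Lcn2, ENSMUSG00000026822, chr2:32274645-32278264, minus strand) is a secreted protein that binds iron-carrying siderophores and is made by reactive glia and by neutrophils. It measured 14.2, 6.86 and 37.2 CPM in PBS. The fluvastatin libraries were nearly identical at 10.8, 11.1 and 11.2 CPM, and the MBV libraries were higher at 33.0, 23 and 51.1 CPM. The lowest MBV library was thus above the highest fluvastatin library, while the PBS range overlapped both groups. Against fluvastatin the MBV level differed by 1.67 ± 0.249, or 3.18-fold, with an unadjusted p of 6.59e-05 and an FDR of 0.0857 in edgeR. Against PBS, Lcn2 differed by -0.79 ± 0.449 for fluvastatin and by 0.87 ± 0.503 for MBV, with edgeR FDRs of 0.256 and 0.243. Without PBS replicate 3 the fluvastatin value turned to 0.07, with an edgeR FDR of 0.867, and the MBV value reached 1.73, with an FDR of 0.0173. Without PBS replicate 2 the fluvastatin value passed the threshold at -1.20, with an edgeR FDR of 0.029.

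Ceruloplasmin (Cp, ENSMUSG00000003617, chr3:20011218-20063309, plus strand) is a copper-carrying ferroxidase that lets cells export iron. It had the highest group mean CPM of the members, though per kilobase of exon it was below Vim (30.5 against 33.3 CPM per kb in PBS), and stood at 298, 279 and 449 CPM in PBS, 303, 225 and 269 CPM in fluvastatin and 370, 394 and 376 CPM in MBV. As with Lcn2, the MBV range lay above the fluvastatin range, and for Cp it lay inside the PBS range. The difference of MBV from fluvastatin was 0.49 ± 0.0916, or 1.40-fold, with an unadjusted p of 0.000398 and an FDR of 0.135 in edgeR. Against PBS the values were -0.36 ± 0.158 for fluvastatin and 0.12 ± 0.147 for MBV, with edgeR FDRs of 0.144 and 0.585. Cp was called after 1 library was left out in several cases: in fluvastatin against PBS at -0.47 without fluvastatin replicate 1 (edgeR FDR 0.0412), and in MBV against PBS at 0.36 without PBS replicate 3 (FDR 0.00423). Cp shares 108 exon bases with Hps3 on the other strand, which averaged 54.5 to 72.2 CPM over the groups, and their reads cannot be told apart there.

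In MBV against fluvastatin, edgeR called 0 of the 9 members, beside 0.0588% of 18721 genes, and 2 members, Lcn2 and Cp, had an unadjusted p under 0.05, as 10.7% of all genes had. DESeq2 called these 2 members, with FDRs of 0.000933 for Lcn2 and 0.000197 for Cp, and called 122 of all genes where edgeR called 11. The edgeR call was also made for Lcn2 without MBV replicate 2 (1.91, FDR 0.00468) and without MBV replicate 3 (1.30, FDR 0.00237), and for Cp without fluvastatin replicate 1 (0.59, FDR 0.0405) and without MBV replicate 3 (0.48, FDR 0.044). Ranges were separate for the same 2 members, beside 16.1% of all genes, with 10.8% separate and higher in MBV. Vim, Serpina3n, Edn2, A2m and Cebpd differed by -0.16 (A2m) to 0.65 (Cebpd) between MBV and fluvastatin, with edgeR FDRs of 0.66 to 0.933.

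The remaining members did not pass the main edgeR test, with all libraries and no replicate block, in any comparison. Serpina3n (ENSMUSG00000021091, chr12:104372988-104380588, plus strand) encodes a secreted serine protease inhibitor and marker of reactive astrocytes. Its levels were 35.9, 26.1 and 64.6 CPM in PBS, 34.3, 22 and 35.8 CPM in fluvastatin and 26.9, 37.4 and 23.9 CPM in MBV. Its differences from PBS were -0.45 ± 0.28 for fluvastatin and -0.55 ± 0.287 for MBV, with edgeR FDRs of 0.301 and 0.195. PBS replicate 3 was above all other libraries, and the remaining ranges overlapped. A2m (ENSMUSG00000030111, chr6:121612335-121656186, plus strand), the broad protease inhibitor alpha-2-macroglobulin, was at 33.7, 30.3 and 60.7 CPM in PBS, 35.6, 32.7 and 49.0 CPM in fluvastatin and 37.1, 48.9 and 21.6 CPM in MBV. Its differences from PBS were -0.08 ± 0.23 and -0.25 ± 0.299, with edgeR FDRs of 0.842 and 0.576.

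Endothelin 2 (Edn2, ENSMUSG00000028635, chr4:120018403-120024557, plus strand) is a peptide that stressed photoreceptors release and that acts on Müller glia. It was at 8.71, 9.61 and 24 CPM in PBS, 12.4, 15.5 and 16.7 CPM in fluvastatin and 15.8, 18.9 and 8.96 CPM in MBV. The 3 group means lay between 14.1 and 14.9 CPM, and the differences from PBS were 0.09 ± 0.315 and 0.02 ± 0.377, with edgeR FDRs of 0.867 and 0.974. Without PBS replicate 3, Edn2 was called in fluvastatin against PBS at 0.70, with an edgeR FDR of 0.00855, so the comparison rested on that library.

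**Figure D3:**
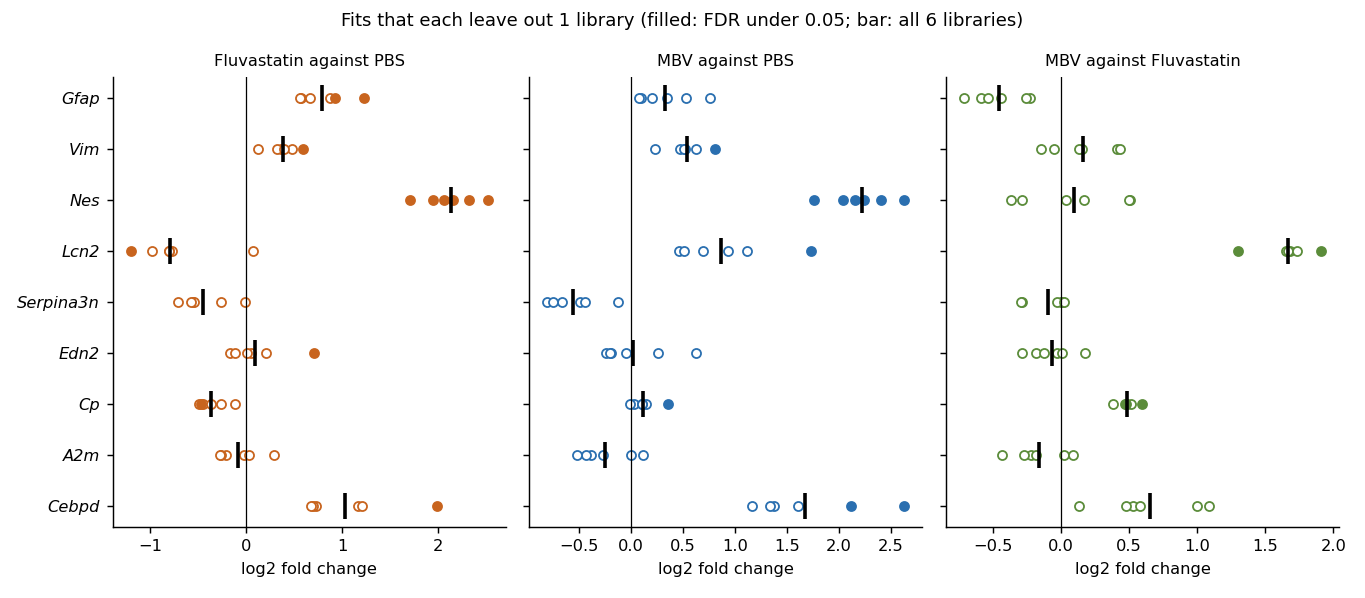
Log2 fold change (x axis) of each gene in the 3 comparisons when 1 library is left out (circles) and with all 6 libraries (black bars); filled circles have an FDR under 0.05. Nes stays filled at 1.71 to 2.52 and 1.76 to 2.62 against PBS, while Lcn2, Edn2 and A2m have points on both sides of 0 in fluvastatin against PBS.

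The spread within groups was itself large for these genes. The median coefficient of variation of the 9 members was 46.1% in PBS, 24.7% in fluvastatin and 38.1% in MBV. Over all genes averaging at least 5 CPM it was 4.57%, 5.5% and 5.64%. Exceptions were Lcn2 in fluvastatin, at 2.12%, and Cp in MBV, at 3.23%. The members also varied together: PBS replicate 3 was the highest PBS library for 9 of 9 members, as it was for 42.9% of 13972 genes compared. Fluvastatin replicate 3 was the highest of its group for 8 of 9, all but Cp, beside 33.5% of genes. MBV replicate 2 was the highest of its group for 8 of 9, all but Lcn2, beside 41.5% of genes. MBV replicate 3 was the lowest for 7 of 9 and the highest for Lcn2, beside 51.2% of genes lowest there.

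**Figure D4:**
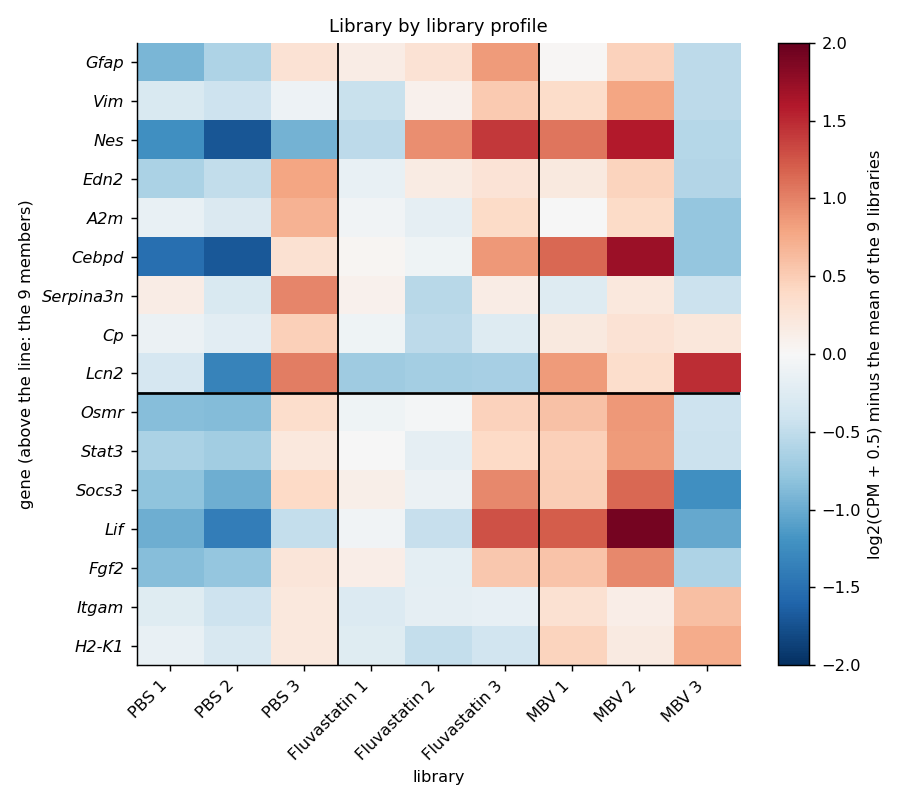
log2(CPM + 0.5) of 16 genes (rows) in the 9 libraries (columns) minus each gene's mean over the libraries, on a colour scale from blue (low) to red (high). Above the horizontal line are the 9 members; Cebpd and the genes of IL-6 family signalling below it are low in PBS 1, PBS 2 and MBV 3 and high in MBV 2, and Lcn2, Itgam and H2-K1 are highest in MBV 3.

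The genes most like 4 of the members over the 9 libraries were looked for among 11705 genes averaging at least 5 CPM. The choice of Nes and Cebpd for this was made after their values were seen, and all r values are descriptions of libraries that share groups and library sets. For Cebpd the nearest genes were the receptor Osmr (Pearson r 0.991, Spearman rho 0.983), Stat3 (r 0.989), the centriole gene Cetn4, the growth factor Fgf2 (r 0.983) and E2f6, while the 99th percentile of all genes was 0.922. Within the 6 libraries of the second set, r with Cebpd was 0.995 for both Osmr and Stat3. Stat3 ranged from 83.4 to 156 CPM in PBS, from 119 to 179 in fluvastatin and from 99.9 to 245 in MBV, so its groups overlapped as those of Cebpd did. For Nes the 5 nearest included Cspg5 (r 0.98, rho 0.967), a neural chondroitin sulfate proteoglycan, Polr2c, Erc1 and Atp2b4, with a 99th percentile of 0.929.

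For Gfap the nearest genes were Syndig1l (r 0.921, rho 0.933), the TWEAK receptor Tnfrsf12a (r 0.916), Rtl5, Eri3 and Vps4a, with a 99th percentile of 0.81. For Lcn2 they were the kinase Rps6ka1 (r 0.975, rho 0.933), Itgam (r 0.968, rho 0.933), Eno3, Slc35g2 and the MHC class I gene H2-K1 (r 0.932), with a 99th percentile of 0.756. Itgam encodes CD11b of myeloid cells and averaged 5.74 CPM in PBS, 5.41 in fluvastatin and 8.21 in MBV. The 11 monocyte and macrophage markers summed to 17.0 to 33.3 CPM in PBS, 14.4 to 19.0 in fluvastatin and 17.8 to 99.2 in MBV, the highest value being that of MBV replicate 3, where Lcn2 was also highest. Of the 13 neutrophil markers, Ly6g and Elane were at 0 in all libraries, and the sums were 9.37 to 14.4, 13.7 to 16.8 and 16.4 to 21.4 CPM. Most of each sum was Mmp9 alone, which averaged 9.29 CPM in PBS, 13.4 in fluvastatin and 14.7 in MBV, so the sums mainly follow that gene. The part of such cells in the Lcn2 difference was not tested.

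Genes that work with the members were counted in lists. Of 16 genes of gp130 and STAT3 signalling, 2 were higher and 1 was lower with fluvastatin than with PBS, beside 9.36% and 10.2% of all genes called in those directions. The ligand Lif rose by 1.61 ± 0.473 (edgeR FDR 0.037) and its receptor Lifr by 0.23 ± 0.0379 (FDR 0.00306), and the ligand Ctf1 fell by 0.85 (FDR 0.0297). After MBV 4 rose and 2 fell, beside 12% and 14.1% of all genes. Lif rose by 2.31 ± 0.655 (edgeR FDR 0.03), Lifr by 0.29 (FDR 0.0011), the IL-6 receptor Il6ra by 1.29 (FDR 0.00615) and the CNTF receptor Cntfr by 0.23 (FDR 0.0177). The Lif ranges overlapped: the MBV libraries were at 8.23, 13.7 and 1.35 CPM, against 0.951 to 2.2 CPM in PBS. The genes that fell were the kinases Jak1 (-0.14, FDR 0.0418) and Jak2 (-0.17, FDR 0.0325). Stat3 and its feedback inhibitor Socs3 were called in neither.

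The next lists are set beside the same shares of all genes: 9.36% higher and 10.2% lower with fluvastatin, 12% and 14.1% with MBV. Of 6 partners of the filament genes, the neuronal filament gene Ina was called higher with fluvastatin (0.34, edgeR FDR 0.0277). With MBV, Ina (0.30, FDR 0.00963), Synm (0.26, FDR 0.015) and Des (1.20, FDR 0.0179) were higher. Of 5 other C/EBP genes in the tables, Cebpa was called, higher with MBV (1.06 ± 0.254, edgeR FDR 0.015). Of 6 genes of the endothelin system, the converting enzymes Ece1 and Ece2 were higher in both comparisons, by 0.22 and 0.31 with fluvastatin and 0.28 and 0.32 with MBV, and Edn3 was lower with fluvastatin (-1.99 ± 0.603, edgeR FDR 0.0425), a call lost with a minimum of 10 counts in 2 libraries. Of 10 iron genes, 1 rose and 2 fell with fluvastatin, and 1 rose and 3 fell with MBV. The transferrin receptor Tfrc was lower by -0.75 and -0.87 and hephaestin (Heph), a ferroxidase related to Cp, by -0.81 and -1.09, whereas transferrin (Trf) was higher by 0.73 and 0.60. Of 15 acute phase and protease inhibitor genes tested, 0 were called by edgeR with fluvastatin, and Lrp1, the receptor that clears A2m complexes, was called with MBV (0.28, FDR 0.0146). The paralogues of Serpina3n did not exceed 0.636 CPM in any library.

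Other genes of reactive glia were counted in the same way. Over all genes, 9.36% were called higher and 10.2% lower with fluvastatin, and 12% and 14.1% with MBV. Of 8 further pan-reactive genes, the chemokine Cxcl10 was called, higher with fluvastatin (2.72 ± 0.757, edgeR FDR 0.0299), and 0 were called by edgeR with MBV. Cxcl10 levels were low and overlapped, at 3.43, 0.258 and 3.13 CPM in fluvastatin against 0.194 to 0.57 CPM in PBS. Of 12 genes of the A1 type of reactive astrocyte, Fbln5 (-1.03) and Fkbp5 (-0.27) were lower with fluvastatin, and with MBV Fbln5 was lower (-1.40) and the MHC class I gene H2-D1 higher (0.68 ± 0.195, edgeR FDR 0.0323). H2-D1 was also the only gene of this list called between MBV and fluvastatin, at 0.66 ± 0.0845 with an edgeR FDR of 0.0318, beside 0.0588% of all genes. Of 12 A2-type genes, Emp1 (-1.16) and Tgm1 (-1.24) were lower with fluvastatin, and with MBV Emp1 was lower (-1.08) and B3gnt5 higher (0.68). Of 14 identity genes of Müller glia, 9 were called lower with fluvastatin and 6 with MBV, beside 10.2% and 14.1% of all genes. Among them were Hes1 (-0.67 and -0.74), Dkk3 (-0.57 and -0.56) and the retinaldehyde-binding protein Rlbp1 (-0.29 and -0.39). None of the 14 was called higher, and the list's medians were -0.41 and -0.32. The 9 markers of pigment epithelium and melanocytes, which include Rlbp1, had medians of -1.67 and -1.73 in the same comparisons. The list did not move as a whole: its pigment genes Pmel, Tyr, Tyrp1, Mlana and Dct had lower means with both agents. Ttr, at 20.8 CPM in PBS, was higher at 46.2 in fluvastatin and 39.0 in MBV. Rpe65 had means of 4.63, 6.59 and 6.1 CPM in the same order, with overlapping ranges. The part of these markers in the Müller glia counts was not tested. Of 8 astrocyte genes, among them Gfap and, shared with the Müller glia list, Aqp4, the genes Aqp4 (-0.52) and Gja1 (-1.54) were called lower with fluvastatin and Aqp4 (-0.61) with MBV.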

How the data were processed

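Total RNA of whole retina was sequenced as paired reads on an Illumina NextSeq. Per the paper's methods and the labels, the authors aligned the reads to GRCm39 in CLC Genomics Workbench and deposited raw counts per gene for 25655 genes in tables of 2 groups each. Those tables also hold the authors' own fold changes and p-values, which were not used. The 6 count columns of the combined treatment without a library name were used in no step.

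For each pair of groups, every gene with a nonzero count in some library was kept, scaled by TMM and tested with the quasi-likelihood method of edgeR 4.0.16 (R 4.3.3), using Benjamini-Hochberg adjustment and an FDR threshold of 0.05. No strand setting is given in the sources used here. DESeq2 1.42.0, other scalings and filters, a replicate block and leaving out each library were alternatives. The fit was also run on simulated counts with a single spread between libraries for all genes, 7.78% to 10.1% by comparison. That is below the median spread of the members, so the simulation does not show how the test behaves for them. The named genes are the 9 members, up to 4 called genes of smallest FDR in each of 19 lists, and the 5 genes of highest Pearson r of log2(CPM + 0.5) with Gfap and with Lcn2; Nes, Cebpd, Jak1 and Jak2 were added to these after their values were seen. A few genes that this rule would name are not reported here. The members and lists were chosen with earlier results of these data known. Promoters are from RefSeq (GRCm38.p6) and positions from the deposited tables (GRCm39). For the 9 members, counting error is small at these depths and the number of libraries limits the precision. For list genes with few counts, counting error is not small. Python 3.11.15, pandas 2.3.3 and matplotlib 3.10.9 were used for the rest.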

Additional observations from a re-analysis of the deposited data

How the results depend on the processing

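With 3 libraries a group, 1 library decided the call or sign of several members other than Nes. Leaving out 1 library at a time, the members called numbered 1 to 4 in fluvastatin against PBS, 1 to 4 in MBV against PBS and 0 to 2 in MBV against fluvastatin. Over all genes the same fits called 1726 to 4402, 2711 to 5664 and 0 to 197. Some differences changed sign when 1 library was left out. For fluvastatin against PBS these log2 ranges were -1.20 to 0.07 for Lcn2, -0.16 to 0.70 for Edn2 and -0.27 to 0.29 for A2m. For MBV against PBS these log2 ranges were -0.24 to 0.62 for Edn2, -0.00 to 0.36 for Cp and -0.52 to 0.12 for A2m. For MBV against fluvastatin these log2 ranges were -0.15 to 0.44 for Vim, -0.37 to 0.51 for Nes, -0.29 to 0.02 for Serpina3n, -0.28 to 0.17 for Edn2 and -0.43 to 0.09 for A2m. In other settings no member changed sign. Under DESeq2 2 members were called in MBV against fluvastatin, where edgeR called 0, and 122 genes in all, where edgeR called 11. With a minimum of 10 counts in 2 libraries, 0 genes of the A1-type list were called in MBV against fluvastatin and 1 of the astrocyte list in fluvastatin against PBS. The same minimum left 8 Müller glia genes lower and Edn3 uncalled with fluvastatin, and 5 lens genes higher with MBV. The cause of these shifts was not tested.

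Whether same-numbered libraries belong together is not given in the sources used here. Their deviations from the group means correlated at -0.478 to 0.22, and those of differently numbered libraries at -0.367 to 0.453. With 3 libraries a group, such values cannot decide it. With a replicate block, the members called were 4 in fluvastatin against PBS (Gfap, Nes, Serpina3n and Cebpd) and 2 in MBV against PBS (Nes and Lcn2), and in MBV against fluvastatin still 0, with 3727, 3876 and 0 called over all genes. The planned fits with the combined treatment (against PBS, and the effect of each agent balanced over the library sets) were not run, because its count columns have no library name.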

Other observations

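Markers of other cells gave the counts below against PBS. The shares over all genes were 9.36% higher and 10.2% lower with fluvastatin, and 12% and 14.1% with MBV. Of 8 retinal ganglion cell genes, Nefh (1.07), Sncg (0.57) and Thy1 (0.44) were called higher with fluvastatin, and with MBV Nefh was higher (0.94 ± 0.0922, edgeR FDR 0.000531) and Isl1 lower (-0.33). Of 8 photoreceptor genes, 2 were lower with fluvastatin, among them Sag (-0.33), and 4 with MBV, among them Sag (-0.51), Nrl (-0.40) and Pde6b (-0.37). Of 9 genes of pigment epithelium and melanocytes, 6 were lower and 1 higher in each comparison, with the pigment gene Pmel at -2.01 and -2.44. The pigment epithelium genes Ttr and Rpe65 had higher means with both agents than in PBS. Of 8 lens genes, 7 were higher with MBV, among them Cryaa (5.38 ± 0.569, edgeR FDR 0.000599), and Bfsp2 was lower with fluvastatin (-1.11).

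Of 13 neutrophil genes, Mmp9 was higher in both comparisons (0.53 and 0.64) and Ltf lower (-2.70 and -2.67), and S100a8 was lower with fluvastatin (-2.72). Ltf and S100a8 had very few counts, with means of 0.455 and 0.295 CPM in PBS and 0.0664 and 0.0418 CPM in fluvastatin. With a minimum of 10 counts in 2 libraries, 4 of these genes were tested with fluvastatin, and 1 was lower. Among 11 monocyte and macrophage genes, Lyz2 was lower with fluvastatin (-1.31 ± 0.345, edgeR FDR 0.024), and edgeR called 0 with MBV. Of 8 microglia genes, 2 were lower with fluvastatin, among them Gpr34 (-0.56), and 1 with MBV. Of 10 endothelium and pericyte genes, Flt1 was lower with fluvastatin (-0.29), and Cdh5 (0.69), Vwf (0.77) and Kcnj8 (0.99) were higher with MBV.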
